A study of Mus musculus with 14 samples.

Results

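Expression of 9 genes of the tight junction was followed across 4 vectors and 2 days in mouse embryonic fibroblasts: the claudins Cldn1, Cldn3, Cldn4 and Cldn6, occludin (Ocln), tricellulin (Marveld2), angulin-2 (Ildr1), and the scaffold proteins ZO-1 (Tjp1) and ZO-3 (Tjp3). They were the 9 listed genes among 19935 named genes on the array, and each was measured by 1 probe set, so no choice between probe sets had to be made. The fibroblasts, of the ICR strain and grown in mESC medium, received SKO and HDAC7 (SKO+HDAC7), SKO and MEF2C (SKO+MEF2C), SKO and an empty Flag vector (SKO+Flag), or GFP, and were lysed on D6 or D10. There were 2 arrays for each SKO group on each day and 1 GFP array on each day, 14 arrays in all. SKO is an abbreviation left unexplained in the labels, usually read as Sox2, Klf4 and Oct4, the factors of reprogramming. The labels name neither the promoter of the vectors nor any clone or pooling. HDAC7 is a class IIa histone deacetylase, a family that lacks strong deacetylase activity of its own and binds MEF2 transcription factors, of which MEF2C is one. Nothing in the labels says that the 2 arrays of a group came from separate cultures, so the p-values measure only how far these arrays differ, a spread that may be technical.

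Tight junctions seal the space between neighbouring epithelial cells. Claudins form the strands that set how tight the seal is, the MARVEL proteins occludin and tricellulin lie in the same strands, angulins such as Ildr1 recruit tricellulin to the corners where cells meet, and ZO proteins tie the strands to actin. Fibroblasts have no tight junctions, although ZO-1 is also found at their cadherin contacts. Fibroblasts that are reprogrammed towards pluripotency pass through a mesenchymal-to-epithelial transition, in which junction genes are gained while the repressors of the SNAIL, ZEB and TWIST families are lost. SNAIL and ZEB proteins bind the E-box CAGGTG in promoters of epithelial genes.

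The promoters of the 5 genes that differed between SKO+HDAC7 or SKO+MEF2C and SKO+Flag are printed here because those genes carry the results. Each window is 300 bases in RefSeq's GRCm38.p6 build, 250 before to 50 after an annotated start, and capitals mark the letters CAGGTG on either strand (CACCTG as printed is the same E-box on the other strand). The Cldn1 window, at chr16:26371790-26372089 on the minus strand, holds none.
Cldn1: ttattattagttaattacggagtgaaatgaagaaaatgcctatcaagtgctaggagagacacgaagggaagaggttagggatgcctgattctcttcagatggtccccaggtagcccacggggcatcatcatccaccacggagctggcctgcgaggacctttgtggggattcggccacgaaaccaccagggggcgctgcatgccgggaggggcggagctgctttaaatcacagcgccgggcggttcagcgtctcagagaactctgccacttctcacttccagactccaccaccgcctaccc
The Cldn4 window, at chr5:134946885-134947184 on the minus strand, holds a pair of them around the start.
Cldn4: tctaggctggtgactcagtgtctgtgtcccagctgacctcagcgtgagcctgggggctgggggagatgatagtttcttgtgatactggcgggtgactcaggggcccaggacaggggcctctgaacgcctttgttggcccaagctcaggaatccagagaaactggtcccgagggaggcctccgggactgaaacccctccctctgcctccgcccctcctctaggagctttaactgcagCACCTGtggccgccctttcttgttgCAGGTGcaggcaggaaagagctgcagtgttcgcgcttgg
The Ocln window at the outermost start, at chr13:100552669-100552968 on the minus strand, holds 1 just after the start.
Ocln: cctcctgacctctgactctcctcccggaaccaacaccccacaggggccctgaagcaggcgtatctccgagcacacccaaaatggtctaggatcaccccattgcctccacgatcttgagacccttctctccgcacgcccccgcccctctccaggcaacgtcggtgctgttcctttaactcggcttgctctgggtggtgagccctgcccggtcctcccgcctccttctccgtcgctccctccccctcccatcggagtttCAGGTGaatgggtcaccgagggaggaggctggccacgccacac
The Ildr1 window, at chr16:36693728-36694027 on the plus strand, holds 1 at 88 bases before the start.
Ildr1: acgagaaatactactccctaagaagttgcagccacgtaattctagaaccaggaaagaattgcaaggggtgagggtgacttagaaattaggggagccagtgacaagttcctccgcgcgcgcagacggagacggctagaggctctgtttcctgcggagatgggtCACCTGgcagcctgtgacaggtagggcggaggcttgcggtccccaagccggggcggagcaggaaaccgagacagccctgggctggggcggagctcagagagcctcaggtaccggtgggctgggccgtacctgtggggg
The Tjp1 window, at chr7:65371195-65371494 on the minus strand, belongs to a start inside the gene rather than its outermost one and holds none.
Tjp1: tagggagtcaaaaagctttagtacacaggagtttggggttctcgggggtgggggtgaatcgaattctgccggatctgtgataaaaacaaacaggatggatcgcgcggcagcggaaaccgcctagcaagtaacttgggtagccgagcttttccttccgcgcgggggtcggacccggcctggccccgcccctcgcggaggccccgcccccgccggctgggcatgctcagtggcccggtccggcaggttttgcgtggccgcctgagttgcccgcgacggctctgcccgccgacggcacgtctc
A second Ocln window, at chr13:100552449-100552748, overlaps the one shown and holds 2 matches, the one shown and another at 68 bases before its own start. All 9 genes had a window in the table, and 7 of them held CAGGTG in at least 1 window, all but Cldn1 and Tjp1. The same letters stood in 22.6% of the 27025 genes with windows and in 20.2% of all 32851 windows. The letters AACCNGTT, bound by grainyhead-like factors of epithelia, stood in 0 of the 9 genes on either strand. They stood in 2.35% of the 27025 genes and in 2.09% of all windows, so 0 of 9 says little. A match describes letters alone, and 0 matches says only that these letters are not in these windows.

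All values are log2 expression as deposited, and differences are log2 differences with their standard error (SE) from 1 limma model over all 14 arrays, called at an adjusted p under 0.05 over all 19935 genes. Array medians lay between 5.68 and 5.76. The labels matched the transduced genes: in SKO+HDAC7, Hdac7 exceeded its SKO+Flag level by 4.28 ± 0.06 (limma adjusted p = 1.6e-11), in SKO+MEF2C, Mef2c exceeded its SKO+Flag level by 3.07 ± 0.07 (3.9e-09), and Pou5f1 in SKO+Flag exceeded its GFP level by 6.75 ± 0.07 (2.4e-13). Of the 9 genes, Cldn1, Cldn3, Ildr1 and Tjp1 had a mean above that of the median gene. Cldn4, Cldn6, Ocln, Marveld2 and Tjp3 lay below it, no detection call was used, and the deposited values do not show that these 5 were above background on every array. In a population of cells, fewer cells of a type and less RNA per cell cannot be told apart.

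**Figure D1:**
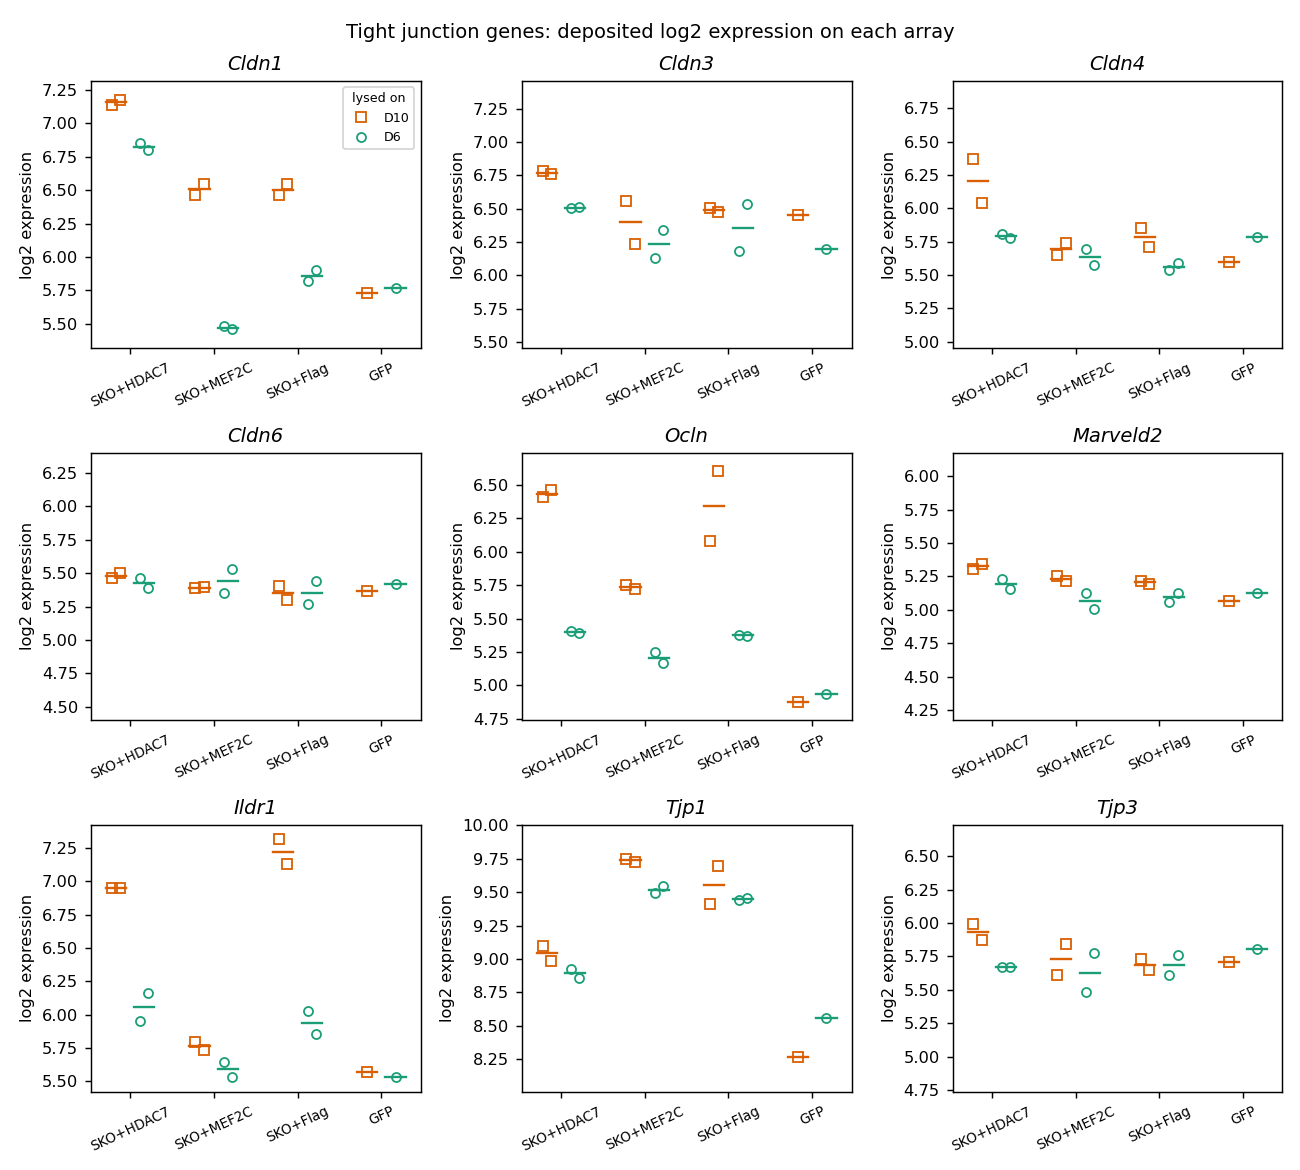
Deposited log2 expression of the 9 tight junction genes on each of the 14 arrays, with SKO+HDAC7, SKO+MEF2C, SKO+Flag and GFP on the horizontal axis, squares for D10, circles for D6 and a bar at each group's mean. Cldn1 was highest in SKO+HDAC7 on both days (7.14 and 7.18 on D10, 6.85 and 6.80 on D6), while Ildr1 stood at 5.79 and 5.73 in SKO+MEF2C on D10, below the SKO+HDAC7 and SKO+Flag arrays of that day. Each panel is centred on its own gene and spans the same log2 range.

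With HDAC7 added to SKO, 2 claudins rose and ZO-1 fell. Over the mean of both days, SKO+HDAC7 was above SKO+Flag for Cldn1 and Cldn4 and below it for Tjp1, 3 of 9 genes, where 10.9% of all genes were called (4.83% higher and 6.06% lower). With MEF2C added, Ildr1, Ocln and Cldn1 were lower than in SKO+Flag and 0 were higher, again 3 of 9, where 10.3% of all genes were called (5.49% higher and 4.82% lower). Both comparisons use the same SKO+Flag arrays. Set directly against each other, SKO+HDAC7 was above SKO+MEF2C for Cldn1, Ildr1, Ocln, Cldn4 and Cldn3 and below it for Tjp1, 6 of 9 genes, where 22.0% of all genes were called (10.3% higher and 11.8% lower). By day, HDAC7 against SKO+Flag gave 3 of 9 calls on D10 (7.27% of all genes) and 2 of 9 on D6 (4.58%). MEF2C against SKO+Flag gave 2 of 9 on D10 (7.01%) and 1 of 9 on D6 (3.10%), and HDAC7 against MEF2C gave 5 of 9 on D10 (16.0%) and 3 of 9 on D6 (12.7%). The median difference over the 9 genes was 0.11 for HDAC7 against SKO+Flag, beside 0.02 over all genes, -0.01 for MEF2C against SKO+Flag, beside 0.01, and 0.32 for HDAC7 against MEF2C, beside 0.01. Without the SKO+MEF2C D6 replicate 2 or the SKO+MEF2C D10 replicate 1 array, the count for MEF2C against SKO+Flag was 1. Median centring of the arrays moved the share of higher genes among those called, over all genes, to 31.5% against 44.4% as deposited for HDAC7 against SKO+Flag, and to 43.0% against 53.3% for MEF2C against SKO+Flag. It changed neither count of the 9 genes.

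**Figure D2:**
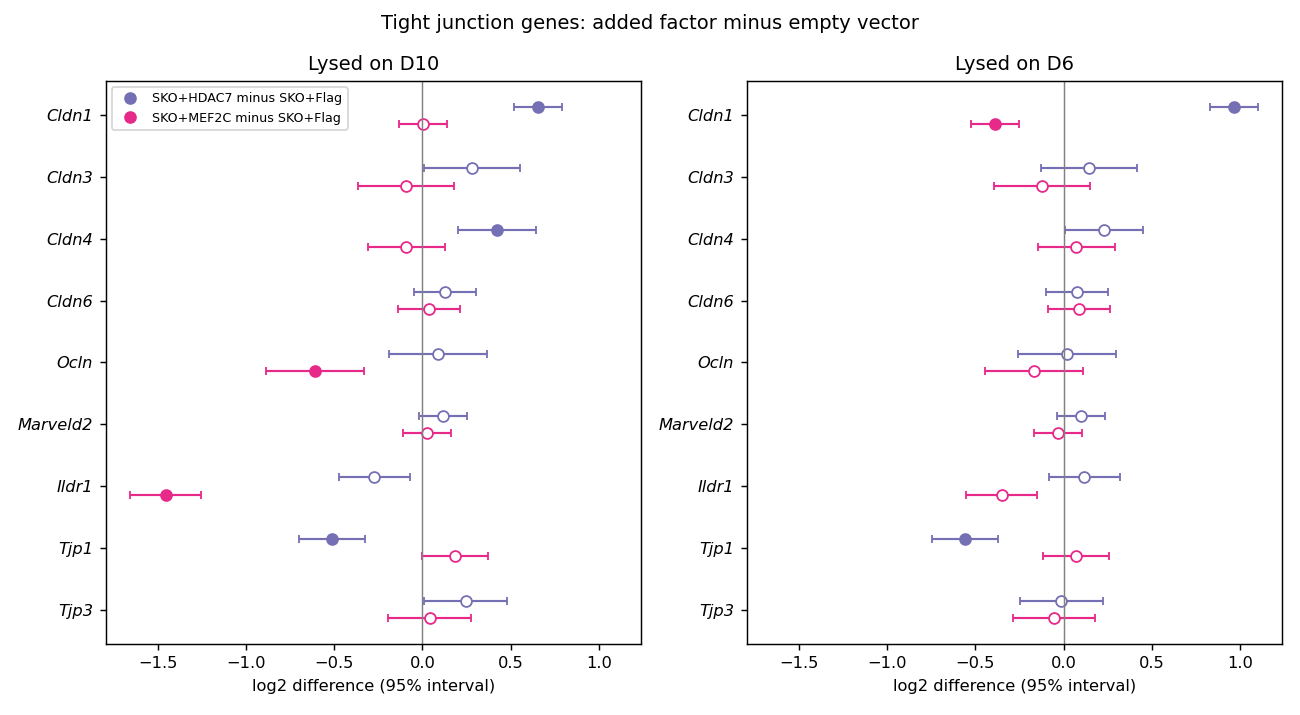
Log2 difference of SKO+HDAC7 and of SKO+MEF2C from SKO+Flag for the 9 tight junction genes on D10 (left) and D6 (right), with 95% intervals, filled where the limma adjusted p was under 0.05. The largest differences drawn are Ildr1 in SKO+MEF2C on D10 (-1.46) and Cldn1 in SKO+HDAC7 on D6 (0.97).

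Claudin-1, which forms barriers in the epidermis and many other epithelia, gave the clearest difference with HDAC7. Cldn1 read 7.14 and 7.18 in SKO+HDAC7, 6.46 and 6.55 in SKO+MEF2C, 6.46 and 6.54 in SKO+Flag and 5.73 in GFP on D10. On D6 it read 6.85 and 6.80 in SKO+HDAC7, 5.48 and 5.46 in SKO+MEF2C, 5.82 and 5.90 in SKO+Flag and 5.77 in GFP. On each day both SKO+HDAC7 arrays were above every other array of that day, and even the D6 arrays of SKO+HDAC7 were above the D10 arrays of the other vectors. The difference of SKO+HDAC7 from SKO+Flag was 0.65 ± 0.06 on D10 (1.57-fold, limma adjusted p = 9.8e-05) and 0.97 ± 0.06 on D6 (1.95-fold, 2.7e-05). In SKO+MEF2C, the D6 arrays were the lowest of all 14, with a difference of -0.39 ± 0.06 from SKO+Flag (limma adjusted p = 0.0071), whereas the D10 arrays overlapped those of SKO+Flag, with a difference of 0.00 and a 95% interval of -0.13 to 0.14. The difference of the MEF2C effect between days, 0.39 ± 0.09, was not called (limma adjusted p = 0.18), and neither was that of the HDAC7 effect, -0.31 ± 0.09 (0.21). The D6 call in SKO+MEF2C was lost without SKO+Flag replicate 2 (-0.35, limma adjusted p = 0.06), SKO+MEF2C replicate 1 (-0.40, 0.057) or SKO+MEF2C replicate 2 (-0.38, 0.065). The call over both days, -0.19 ± 0.04 (0.016), was lost without SKO+Flag D6 replicate 2 (0.054), SKO+MEF2C D6 replicate 2 (0.061) or SKO+MEF2C D10 replicate 1 (0.074), and with an intensity-dependent robust prior (0.052).

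Claudin-4, a sealing claudin of many simple epithelia, rose with HDAC7 by less. Cldn4 read 6.37 and 6.04 in SKO+HDAC7, 5.65 and 5.74 in SKO+MEF2C, 5.86 and 5.71 in SKO+Flag and 5.60 in GFP on D10. The D6 values were 5.81 and 5.78 in SKO+HDAC7, 5.70 and 5.57 in SKO+MEF2C, 5.54 and 5.59 in SKO+Flag and 5.79 in GFP. The SKO+HDAC7 arrays were above the SKO+MEF2C and SKO+Flag arrays on both days, and the GFP array of D6 lay level with SKO+HDAC7. The difference from SKO+Flag was 0.33 ± 0.07 over both days (1.25-fold, limma adjusted p = 0.013) and 0.42 ± 0.10 on D10 (1.34-fold, 0.027), and 0.23 on D6 was not called (0.23). The size on D10 moved with the array left out. Without SKO+HDAC7 D10 replicate 1 the difference was 0.26 and no longer called, and without replicate 2 it was 0.59. Without SKO+Flag D10 replicate 2 it was 0.35 (0.11), and in a fit to the compared groups alone 0.42 (0.17).

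Cldn3 and Cldn6 varied less. Cldn3, a partner of claudin-4 in many epithelia, ranged over 0.65 across the 14 arrays. It read 6.78 and 6.76 in SKO+HDAC7, 6.56 and 6.24 in SKO+MEF2C, 6.51 and 6.47 in SKO+Flag and 6.45 in GFP on D10. On D6 it read 6.50 and 6.51 in SKO+HDAC7, 6.13 and 6.34 in SKO+MEF2C, 6.18 and 6.53 in SKO+Flag and 6.20 in GFP. Replicates within a group differed by up to 0.35, and SKO+HDAC7 and SKO+Flag overlapped on D6. Cldn3 was not called against SKO+Flag in SKO+HDAC7 (0.21 ± 0.09, limma adjusted p = 0.15, and 0.30 with 0.046 without SKO+Flag D6 replicate 2) or in SKO+MEF2C (-0.11 ± 0.09, 0.56). SKO+HDAC7 was called 0.32 ± 0.09 above SKO+MEF2C (limma adjusted p = 0.022), but that call was lost without any one of the 4 SKO+HDAC7 arrays, SKO+MEF2C D6 replicate 1 or SKO+MEF2C D10 replicate 2 (0.056 to 0.09). Cldn6, a claudin of embryonic epithelia and stem cells, kept between 5.27 and 5.53 on all 14 arrays and was called by limma in 0 of the 19 comparisons, with 0 also at an unadjusted p under 0.05. Its difference from SKO+Flag was 0.10 (95% interval -0.02 to 0.23) in SKO+HDAC7 and 0.06 (-0.06 to 0.19) in SKO+MEF2C.

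Occludin was lower with MEF2C and was not called with HDAC7. Ocln read 6.41 and 6.46 in SKO+HDAC7, 5.75 and 5.72 in SKO+MEF2C, 6.08 and 6.61 in SKO+Flag and 4.88 in GFP on D10. On D6 it read 5.41 and 5.39 in SKO+HDAC7, 5.25 and 5.17 in SKO+MEF2C, 5.38 and 5.37 in SKO+Flag and 4.94 in GFP. The SKO+MEF2C arrays were below all SKO+HDAC7 and SKO+Flag arrays of the same day, the GFP arrays were the lowest, and the SKO+Flag replicates of D10 lay 0.52 apart, on either side of SKO+HDAC7. SKO+MEF2C minus SKO+Flag was -0.61 ± 0.13 on D10 (1.52-fold lower, limma adjusted p = 0.015) and -0.39 ± 0.09 over both days (1.31-fold lower, 0.018). The D10 call was lost without SKO+MEF2C replicate 1 (0.078) or replicate 2 (0.092), and the call over both days without SKO+Flag D6 replicate 1 (0.055), SKO+MEF2C D6 replicate 2 (0.069) or either SKO+MEF2C D10 array (0.053 and 0.061). Fits to the compared groups alone gave limma adjusted p-values of 0.16 on D10 and 0.051 over both days. For SKO+HDAC7 the difference from SKO+Flag was 0.06 with a 95% interval of -0.14 to 0.25, and without SKO+Flag D10 replicate 2 it was 0.19 (limma adjusted p = 0.029). SKO+HDAC7 was 0.70 ± 0.13 above SKO+MEF2C on D10 (1.62-fold, limma adjusted p = 0.0026).

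Tricellulin, the MARVEL protein of the corners between cells, stayed within a narrow range. Marveld2 lay between 5.01 and 5.35 on all 14 arrays. It read 5.31 and 5.35 in SKO+HDAC7, 5.25 and 5.22 in SKO+MEF2C, 5.22 and 5.20 in SKO+Flag and 5.07 in GFP on D10. On D6 it read 5.23 and 5.16 in SKO+HDAC7, 5.12 and 5.01 in SKO+MEF2C, 5.06 and 5.13 in SKO+Flag and 5.13 in GFP. Neither HDAC7 (0.11 ± 0.04, limma adjusted p = 0.14) nor MEF2C (0.00, 95% interval -0.10 to 0.10) gave a call against SKO+Flag, although SKO+HDAC7 was the higher in 8 of 8 pairs of arrays.

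Ildr1, an angulin that recruits tricellulin to tricellular corners, was lower in SKO+MEF2C than in SKO+HDAC7 and SKO+Flag, with the larger differences on D10. It read 6.95 and 6.95 in SKO+HDAC7, 5.79 and 5.73 in SKO+MEF2C, 7.31 and 7.13 in SKO+Flag and 5.57 in GFP on D10. On D6 it read 5.96 and 6.16 in SKO+HDAC7, 5.64 and 5.54 in SKO+MEF2C, 6.03 and 5.85 in SKO+Flag and 5.53 in GFP. On D10 the SKO+MEF2C arrays lay more than 1 log2 unit below SKO+HDAC7 and SKO+Flag and near the GFP array, and on D6 SKO+HDAC7 and SKO+Flag overlapped above SKO+MEF2C. SKO+MEF2C minus SKO+Flag was -1.46 ± 0.09 on D10 (2.74-fold lower, limma adjusted p = 8.6e-06) and -0.35 ± 0.09 on D6, which was not called (0.073) but was when only genes above the median level were tested (0.034). Over the alternatives run, the D10 difference ranged between -1.55 and -1.36. The MEF2C effect on D10 minus that on D6 was -1.10 ± 0.13 (limma adjusted p = 0.015), 1 of 17 genes called in that test, 0.0853% of all genes. This call was lost without SKO+Flag D6 replicate 2 (-1.02, 0.072) or any one of the 4 SKO+MEF2C arrays (-1.16 to -1.05, 0.064 to 0.08), and in a fit to the compared groups alone (0.093). HDAC7 gave no call against SKO+Flag (-0.27 ± 0.09 on D10, 0.11), with both SKO+HDAC7 arrays of D10 below both SKO+Flag arrays. SKO+HDAC7 was 1.18 ± 0.09 above SKO+MEF2C on D10 (2.27-fold, limma adjusted p = 5.8e-06) and 0.47 ± 0.09 above it on D6 (0.0068), a call lost without SKO+HDAC7 D6 replicate 2 (0.37, 0.057) or SKO+MEF2C D6 replicate 2 (0.42, 0.065). In the limma test of the HDAC7 effect between days, 0 of the 9 genes were called, where 0.125% of all genes were, and 2, Cldn1 and Ildr1, had an unadjusted p under 0.05.

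ZO-1, the scaffold that binds claudins and occludin and links them to actin, fell in SKO+HDAC7, where Cldn1 and Cldn4 rose. Tjp1 read 9.10 and 8.98 in SKO+HDAC7, 9.75 and 9.73 in SKO+MEF2C, 9.41 and 9.69 in SKO+Flag and 8.26 in GFP on D10. On D6 it read 8.92 and 8.86 in SKO+HDAC7, 9.49 and 9.54 in SKO+MEF2C, 9.44 and 9.46 in SKO+Flag and 8.55 in GFP. On both days SKO+HDAC7 lay between GFP below and the other SKO groups above, with no overlap. The difference from SKO+Flag was -0.51 ± 0.08 on D10 (1.43-fold lower, limma adjusted p = 0.0041) and -0.56 ± 0.08 on D6 (1.47-fold lower, 0.0049). A fit to the compared groups alone lost the D10 call (0.09). Over both days it was -0.53 ± 0.06 (0.00022) and stayed between -0.60 and -0.46 under the alternatives run. In SKO+MEF2C, Tjp1 was not called against SKO+Flag (0.13 ± 0.06, limma adjusted p = 0.24), but without SKO+Flag D10 replicate 2 the difference was 0.20 over both days (0.028) and 0.33 on D10 (0.028). ZO-3, a relative found mainly in epithelia, varied little. Tjp3 read 5.99 and 5.88 in SKO+HDAC7, 5.61 and 5.85 in SKO+MEF2C, 5.73 and 5.65 in SKO+Flag and 5.71 in GFP on D10. Its D6 values were 5.67 and 5.67 in SKO+HDAC7, 5.48 and 5.78 in SKO+MEF2C, 5.61 and 5.76 in SKO+Flag and 5.81 in GFP. Both SKO+HDAC7 arrays on D10 lay above every other array. It was called by limma in 0 of the 19 comparisons, with 2 at an unadjusted p under 0.05, and its difference from SKO+Flag was 0.12 (95% interval -0.05 to 0.28) in SKO+HDAC7.

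Against GFP, the genes that rose with SKO alone were Tjp1, Ildr1, Ocln and Cldn1. These 4 of 9 were higher in SKO+Flag over the mean of both days, none was lower, and 35.7% of all genes were called (17.5% higher and 18.2% lower). Tjp1 was 1.09 ± 0.07 higher (2.13-fold, limma adjusted p = 4.4e-07), Ildr1 1.03 ± 0.08 (2.04-fold, 1.4e-06), Ocln 0.95 ± 0.11 (1.94-fold, 3.5e-05) and Cldn1 0.43 ± 0.05 (1.35-fold, 6.6e-05). The GFP values of Ildr1 and Ocln lay below the medians of those arrays, so their folds may understate the difference. By day, 4 of 9 were called on D10 (26.9% of all genes) and 2 of 9, Tjp1 and Ildr1, on D6 (24.1%). Ocln on D6 (0.44, 0.063) was called with an intensity-dependent robust prior (0.043), after quantile normalization (0.50, 0.026) and in a fit to the compared groups alone (0.02). On D10 Ildr1 was 1.65 ± 0.11 higher (3.14-fold), Ocln 1.47 ± 0.15 (2.77-fold), Tjp1 1.29 ± 0.10 (2.45-fold) and Cldn1 0.77 ± 0.08 (1.71-fold), beside 0.41, 0.44, 0.89 and 0.09 on D6 for the same genes. Whether the differences from GFP changed between the days was not tested. The GFP group has 1 array a day and borrows its spread from the other groups.

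The other vectors share those GFP arrays. In SKO+HDAC7, 7 of 9 genes were higher than in GFP, all but Cldn6 and Tjp3 (33.4% of all genes called, 17.5% higher), with Cldn1 at 1.24 ± 0.05 (2.37-fold, limma adjusted p = 9.7e-09). In SKO+MEF2C, 3 of 9 were higher, Tjp1, Ocln and Cldn1 (31.3% of all genes called, 16.6% higher), and Ildr1 was not called (0.12 ± 0.08, 0.28). Several calls rest on the D10 comparison, which needs the GFP array of D10. Without it, which leaves the D6 comparison, the Cldn1 difference of SKO+MEF2C from GFP was -0.30 (limma adjusted p = 0.015), against 0.24 with it (0.0052). Likewise Cldn1 in SKO+Flag became 0.09 (0.46), Ocln in SKO+Flag 0.44 (0.063), in SKO+HDAC7 0.46 (0.052) and in SKO+MEF2C 0.27 (0.27), and Cldn4 in SKO+HDAC7 0.00 (0.99), against 0.30 (0.018) with it. The smallest calls in SKO+HDAC7, Cldn3 (0.31, 0.043) and Marveld2 (0.16, 0.035), were each lost in turn: Cldn3 without any one of the 6 arrays compared (0.08 to 0.19) or after quantile normalization (0.06), and Marveld2 without the GFP array of D10 (0.07, 0.60), SKO+HDAC7 D6 replicate 1 (0.088) or either SKO+HDAC7 D10 array (0.053 and 0.085). The Marveld2 call was also lost with an intensity-dependent robust prior (0.08), after median centring (0.068) and in a fit to the compared groups alone (0.068). The Ildr1 call of SKO+Flag on D6 was lost without SKO+Flag D6 replicate 1 (0.32, 0.11).

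**Figure D3:**
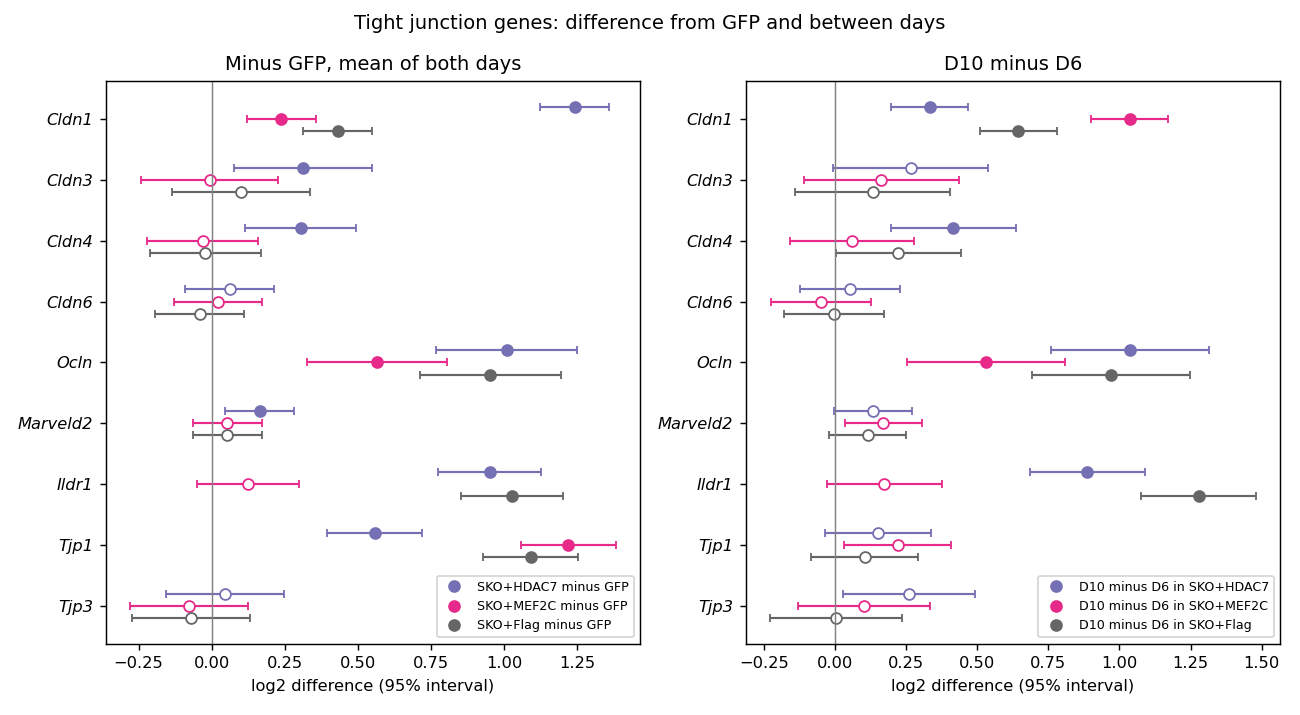
Log2 difference of each SKO group from GFP, mean of both days (left), and of D10 minus D6 within each SKO group (right), for the 9 tight junction genes, with 95% intervals, filled where the limma adjusted p was under 0.05. Ildr1 on D10 minus D6 was 0.89 in SKO+HDAC7 and 1.28 in SKO+Flag, beside 0.17, an open circle, in SKO+MEF2C.

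Between the days, Ocln and Cldn1 were higher on D10 in each of the 3 SKO groups. In SKO+HDAC7, 4 of 9 genes were higher on D10 than on D6 and none was lower (14.6% of all genes called, 7.86% higher): Ocln by 1.04 ± 0.13 (2.05-fold, limma adjusted p = 0.00028), Ildr1 by 0.89 ± 0.09 (9.1e-05), Cldn4 by 0.42 ± 0.10 (0.017) and Cldn1 by 0.33 ± 0.06 (0.0043). In SKO+MEF2C, 2 of 9 were higher (3.08% of all genes called, 1.85% higher): Cldn1 by 1.04 ± 0.06 (2.05-fold, 2.3e-05) and Ocln by 0.53 ± 0.13 (0.0497). In SKO+Flag, 3 of 9 were higher (8.08% of all genes called, 3.75% higher): Ildr1 by 1.28 ± 0.09 (2.43-fold, 1.3e-05), Ocln by 0.97 ± 0.13 (0.00075) and Cldn1 by 0.64 ± 0.06 (9.9e-05). The Ocln call in SKO+MEF2C was lost without any one of its 4 arrays (limma adjusted p 0.16 to 0.28), leaving 1 called gene, and the Cldn4 call in SKO+HDAC7 was lost without SKO+HDAC7 D6 replicate 1 (0.075), D6 replicate 2 (0.081) or D10 replicate 1 (0.25, 0.12). In SKO+Flag the Ocln call was lost in a fit to the compared groups alone (0.057). Tjp1, in contrast to Ocln and Cldn1, was not called between days in any SKO group (0.15, 0.22 and 0.10 in SKO+HDAC7, SKO+MEF2C and SKO+Flag).

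Across the 8 groups of vector and day, the order of the group means differed from gene to gene. For Cldn1 it ran, from the highest, SKO+HDAC7 D10 (7.16), SKO+HDAC7 D6 (6.83), SKO+MEF2C D10 (6.51), SKO+Flag D10 (6.50), SKO+Flag D6 (5.86), GFP D6 (5.77), GFP D10 (5.73) and SKO+MEF2C D6 (5.47). The arrays of SKO+MEF2C D10 and SKO+Flag D10 overlapped in that order, and SKO+Flag D6 was not called against GFP D6. For Tjp1 the order was SKO+MEF2C D10 (9.74), SKO+Flag D10 (9.55), SKO+MEF2C D6 (9.52), SKO+Flag D6 (9.45), SKO+HDAC7 D10 (9.04), SKO+HDAC7 D6 (8.89), GFP D6 (8.55) and GFP D10 (8.26), and the SKO+Flag D10 arrays lay on either side of those of SKO+MEF2C D6 and SKO+Flag D6. For Ildr1 it was SKO+Flag D10 (7.22), SKO+HDAC7 D10 (6.95), SKO+HDAC7 D6 (6.06), SKO+Flag D6 (5.94), SKO+MEF2C D10 (5.76), SKO+MEF2C D6 (5.59), GFP D10 (5.57) and GFP D6 (5.53). The first 2 of these were not called apart, the D6 arrays of SKO+HDAC7 and SKO+Flag overlapped, and the D6 arrays of SKO+MEF2C lay on either side of the GFP array of D10. For Ocln it was SKO+HDAC7 D10 (6.43), SKO+Flag D10 (6.35), SKO+MEF2C D10 (5.74), SKO+HDAC7 D6 (5.40), SKO+Flag D6 (5.38), SKO+MEF2C D6 (5.21), GFP D6 (4.94) and GFP D10 (4.88). The first 2 of these overlapped, and the D6 means of SKO+HDAC7, SKO+Flag and SKO+MEF2C were not called apart. The SD over the 14 arrays was largest for Ildr1 (0.64), Cldn1 (0.59), Ocln (0.56) and Tjp1 (0.46), and for the other 5 genes it was between 0.07 for Cldn6 and 0.22 for Cldn4.

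The genes outside the list whose values ran most like those of Ildr1 over the 14 arrays were Nfatc2, Slc7a3 and Tril, each with a Pearson r of 0.96. For Cldn1 they were Cd34 (0.95), Ttc7 (0.94) and Pqlc3 (0.93), and for Ocln they were Prex2 (0.99), Gbp3 (0.98) and Ptprj (0.97). These 14 points share vectors and days, and the correlations describe the pattern alone.

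Of 20 other claudins measured, where 10.9% of all genes were called with HDAC7, 10.3% with MEF2C and 35.7% in SKO+Flag against GFP, 1 rose with HDAC7, Cldn12 (0.19 ± 0.04, limma adjusted p = 0.02), and 1 fell with MEF2C, Cldn11, the claudin of myelin and of the testis barrier (-0.46 ± 0.05, 0.00011). Against GFP, 3 rose and 1 fell in SKO+Flag, led by Cldn11 (1.23 ± 0.06, 2.2e-08). The median difference of the 20 was 0.08 for HDAC7, 0.02 for MEF2C and -0.04 for SKO+Flag against GFP, beside 0.02, 0.01 and -0.04 over all genes.

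Of 11 other tight junction membrane proteins measured, 1 rose and 3 fell with HDAC7 (10.9% of all genes called). Jam2, an adhesion molecule of the JAM family, read 8.91 and 9.11 in SKO+HDAC7, 9.94 and 10.01 in SKO+MEF2C, 10.13 and 10.39 in SKO+Flag and 6.38 in GFP on D10. SKO+HDAC7 lay below the other SKO groups and far above GFP, with differences of -1.11 ± 0.06 from SKO+Flag with HDAC7 (limma adjusted p = 2e-06), -0.38 ± 0.06 with MEF2C (0.0033) and 3.77 ± 0.08 for SKO+Flag against GFP (6.7e-11). Its relatives F11r (-0.46 ± 0.05, 9.8e-05) and Jam3 (-0.35 ± 0.08, 0.015) also fell with HDAC7. Cxadr, the receptor for coxsackievirus and adenovirus, rose with HDAC7 (0.47 ± 0.08, 0.0045) and fell with MEF2C (-0.33 ± 0.08, 0.031). With MEF2C 2 rose and 2 fell (10.3% of all genes called), the largest change being that of Bves, an adhesion protein first described in muscle and heart, which rose (0.41 ± 0.06, 0.0017). Against GFP 4 rose and 3 fell in SKO+Flag (35.7% of all genes called), with Jam2, Cxadr (2.13 ± 0.10, 3e-08) and F11r (1.77 ± 0.06, 9.9e-10) first. The median difference of the 11 was 0.05 for HDAC7, 0.02 for MEF2C and 0.12 for SKO+Flag against GFP. Whether this list differed from the claudins was not tested.

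Of 19 other plaque proteins measured, 0 rose and 2 fell with HDAC7, about the share over all genes (10.9%), and the larger change was that of Cgnl1, paracingulin, a cingulin-like protein that binds ZO-1 (-0.51 ± 0.04, limma adjusted p = 2.3e-05). With MEF2C 3 rose and 3 fell (10.3% of all genes called), with Amot, angiomotin, at 0.52 ± 0.06 (0.00035) and Patj, a scaffold of the Crumbs polarity complex, at -0.28 ± 0.06 (0.0088). Against GFP 6 rose and 7 fell in SKO+Flag (35.7% of all genes called): Afdn, afadin, rose by 1.03 ± 0.06 (1.5e-07) and Patj by 0.95 ± 0.07 (7.7e-07), while Amot fell (-1.19 ± 0.08, 3.3e-07). The median difference of the 19 was 0.01 for HDAC7, -0.01 for MEF2C and -0.15 for SKO+Flag against GFP. The comparisons with HDAC7 and MEF2C and the one with GFP share the SKO+Flag arrays.

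**Figure D4:**
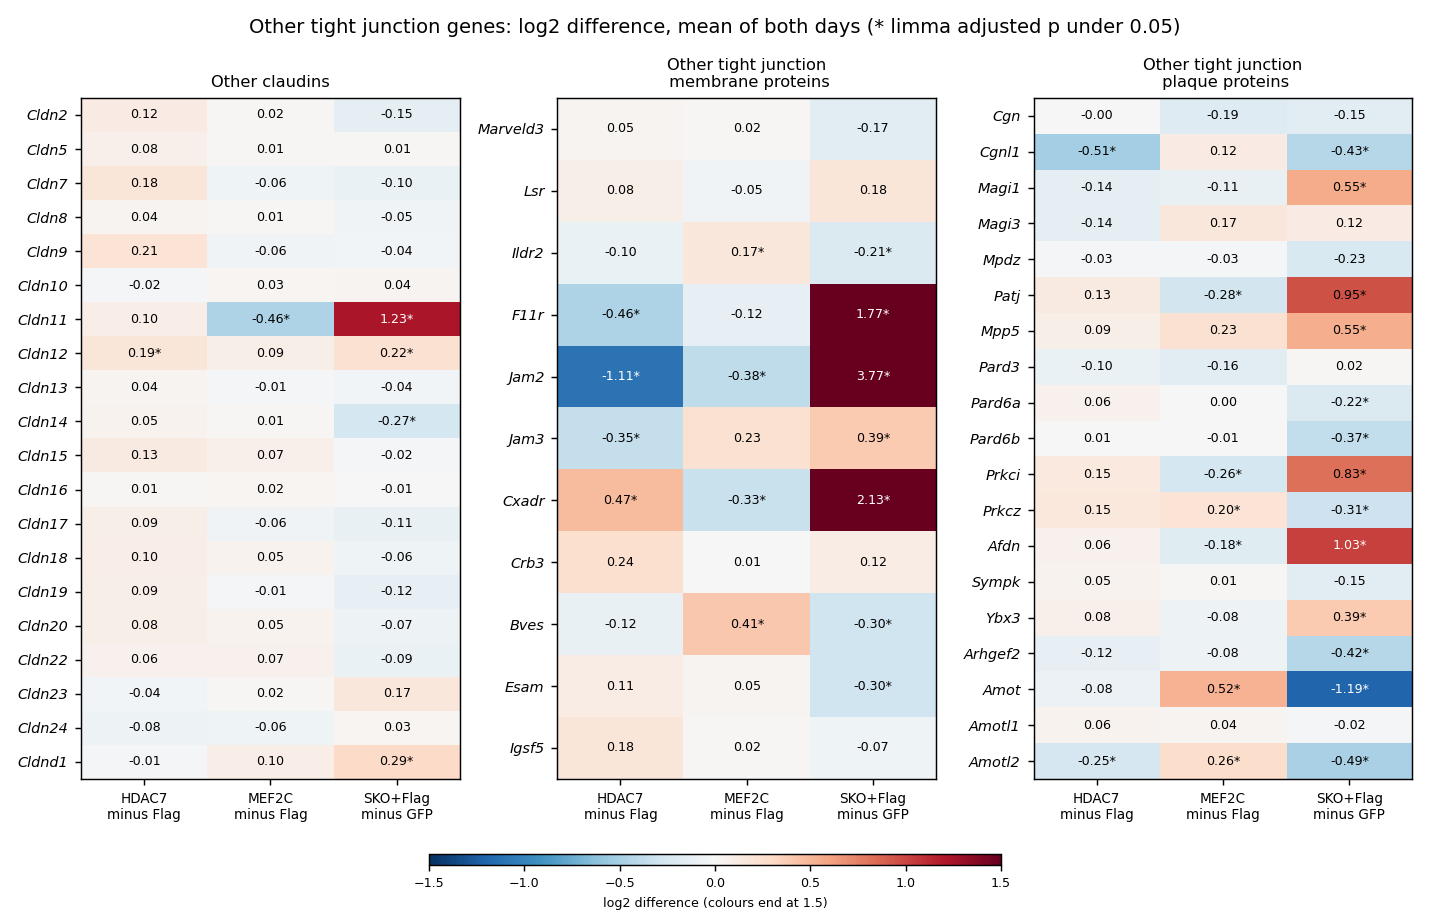
Log2 difference, mean of both days, of SKO+HDAC7 from SKO+Flag, SKO+MEF2C from SKO+Flag and SKO+Flag from GFP for 20 other claudins, 11 other membrane proteins and 19 plaque proteins, red for higher and blue for lower, with a star where the limma adjusted p was under 0.05. The strongest red cells are Jam2 (3.77), Cxadr (2.13), F11r (1.77) and Cldn11 (1.23) in SKO+Flag against GFP.

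Of 18 regulators of epithelial junction genes, 2 rose and 1 fell with HDAC7 (10.9% of all genes called): Ehf (0.78 ± 0.07, limma adjusted p = 6.3e-05) and Elf3 (0.33 ± 0.08, 0.024), both ETS factors of epithelia, rose, and the repressor Snai2 fell (-0.21 ± 0.05, 0.021). By day, 0 of the 18 were called with HDAC7 on D6 (4.58% of all genes), and 2 rose and 0 fell on D10 (7.27%). Snai2 was therefore called only over the mean of days. Ehf was 1.29 higher on D10 and 0.27 higher on D6. In the test of the HDAC7 effect between days 1 of the 18 was called (0.125% of all genes), and the change of Ehf was the largest, 1.02. Elf3 read 5.10 to 5.21 in SKO+Flag, below the array medians. With MEF2C, Twist1 (0.37 ± 0.05, 6e-04) and Twist2 (0.34 ± 0.06, 0.0054) rose and Ehf fell (-0.29 ± 0.07, 0.028), where 10.3% of all genes were called. In SKO+Flag against GFP 1 rose and 7 fell (35.7% of all genes called), with Snai2 (-1.64 ± 0.06, 2.9e-09), Snai1 (-1.21 ± 0.08, 2.3e-07) and Twist2 (-1.11 ± 0.08, 5.8e-07) down and Ehf up (1.55 ± 0.09, 1.2e-07). The median difference of the 18 was 0.06 for HDAC7, -0.01 for MEF2C and -0.10 for SKO+Flag against GFP. Whether these factors act on the 9 genes was not tested.

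Most markers of simple epithelium were called higher with HDAC7, and most were called lower with MEF2C. Among the 9 genes, Cldn1 and Cldn4 were higher and Tjp1 lower with HDAC7, while Ildr1, Ocln and Cldn1 were lower with MEF2C. In each of these comparisons 6 of the 9 were not called. Of 6 markers, 5 rose and 0 fell with HDAC7, 0 rose and 4 fell with MEF2C, and 4 rose and 1 fell in SKO+Flag against GFP, where 10.9%, 10.3% and 35.7% of all genes were called. By day, 5 markers rose with HDAC7 on D10 (7.27% of all genes called) and 1 on D6 (4.58%). With MEF2C 4 of the markers fell on D10 (7.01%) and 1 on D6 (3.10%). Their mean level on D10 was 7.62 to 7.66 in SKO+HDAC7, 6.10 to 6.19 in SKO+MEF2C, 6.72 to 6.80 in SKO+Flag and 5.75 in GFP, and on D6 6.29 in both arrays of SKO+HDAC7, 5.79 to 5.91 in SKO+MEF2C, 5.97 to 6.01 in SKO+Flag and 6.01 in GFP. Epcam, an adhesion protein of epithelia, gave 0.52 ± 0.07 with HDAC7 (limma adjusted p = 0.00062), -1.11 ± 0.07 with MEF2C (3.8e-06) and 1.90 ± 0.08 in SKO+Flag against GFP (1.2e-08). The largest difference of the 6 with HDAC7 was that of another marker, at 1.48. Krt7 went the other way from Epcam in SKO+Flag against GFP, with the lowest difference of the 6, -0.68. Of 7 keratinocyte markers, Krt14 and Krt6a rose with HDAC7 (10.9% of all genes called) and Krt14 fell with MEF2C (10.3%). The part of these cells in the differences of the 9 genes was not tested.

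The fibroblast label was checked against 9 markers, whose mean level was 9.19 to 9.34 in SKO+HDAC7, 9.18 to 9.37 in SKO+MEF2C, 9.22 to 9.26 in SKO+Flag and 10.2 and 10.9 in the GFP arrays. Of the 9 markers, 4 rose and 4 fell with HDAC7 (10.9% of all genes called) and 1 rose with MEF2C (10.3%). In SKO+Flag against GFP 8 fell (35.7% of all genes called, 18.2% lower). The same shares of all genes stand beside the counts of the lists that follow. Markers of pluripotent cells averaged 5.01 to 5.32 on all 14 arrays, below the array medians. Of these 7 markers, 1 rose with HDAC7, 0 were called with MEF2C and 1 fell in SKO+Flag against GFP. Of 7 endothelium markers, Tek rose with HDAC7 (0.60 ± 0.06, limma adjusted p = 0.00013), fell with MEF2C (-0.67 ± 0.06, 6.5e-05) and rose in SKO+Flag against GFP (2.78 ± 0.08, 4.1e-10), and Kdr rose with MEF2C. Of 6 markers of macrophages and blood, Cd68 rose with HDAC7, and Itgam and Cd68 rose in SKO+Flag against GFP. Of 8 markers of trophoblast and endoderm, 3 rose with HDAC7 (10.9% of all genes called). In SKO+Flag against GFP 3 of them fell (35.7%), and Krt7 of this list is also a simple epithelium marker. The mean levels of these 3 lists lay between 4.99 and 5.76 on all arrays.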

How the data were processed

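Total RNA of 14 samples was hybridised to Affymetrix whole-transcript arrays after removal of feeder cells, per the labels' protocols. The deposited table holds log2 expression per probe set. RMA and Partek are named in the submitters' processing notes, and no source used here gives the genome build. Of 28815 probe sets, the platform annotation named 1 gene for 21780, several for 1605 and none here for 5430. Genes with several probe sets (998) took the one of highest mean, which left 19935 genes. The deposited log2 values were used with no further normalization or filter.

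Differences came from limma 3.58.1 in R 4.3.3 (lmFit, contrasts.fit, eBayes) as a model of 8 group means with 6 residual and 4.71 prior degrees of freedom, with Benjamini-Hochberg adjustment over all genes in each of 19 comparisons. The model was run on data simulated with normal noise of its own fitted spread. That run does not test whether this spread holds for these arrays. The number of arrays limits the precision. The 9 genes, the other gene lists and the tests were chosen with earlier results of these data known. Named were the 9 genes, the transduced genes, up to 4 called genes of each list by size, and the 3 genes most like each of the 3 most variable of the 9. Only some of the called markers are named, and not always the largest. Some entries of the lists were not analysed here, and Pals1 was measured as Mpp5. Alternatives were an intensity-dependent robust prior, a fit to only the groups compared, median centring, quantile normalization, another choice of probe set, genes above the median level, experiment blocks and each array left out. A planned search of protein sequences was not run. A free-text description that names a pre-iPSC sample on all 14 arrays was not used for grouping. Promoters came from RefSeq windows in build GRCm38.p6.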

Additional observations from a re-analysis of the deposited data

Results flagged for a closer look

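The Ildr1 difference between SKO+MEF2C and SKO+Flag was not the same on the 2 days by a test of the difference itself: the D10 effect minus the D6 effect was -1.10 ± 0.13 (SE, limma adjusted p = 0.015), with all 4 pairs of arrays lower in SKO+MEF2C on each day. It was lost without any one of 5 of the 8 arrays (0.064 to 0.08). Groups of 1 or 2 arrays leave no test for single outlying arrays.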

How the results depend on the processing

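Of 58 called differences of the 9 genes, recomputed under alternatives that gave 706 values, 642 stayed called in the same direction, 63 were no longer called and 1 reversed: Cldn1 in SKO+MEF2C against GFP, -0.30 without the GFP array of D10 and 0.78 without that of D6. Leaving out a GFP array leaves only the other day, so these are the values of D6 and of D10. The 706 values include another choice of probe set and the experiment blocks. Neither can move the differences themselves, so the 642 partly repeat the main fit. Of 1359 values for differences not called, 17 became called. In what follows, brackets hold the count in the model over all 14 arrays and all genes. Fits to the compared groups alone, which have fewer arrays, called 1 of the 9 genes for HDAC7 against SKO+Flag on D10 (3), 1 for MEF2C against SKO+Flag on D10 (2) and 0 for the change of the MEF2C effect between days (1). Genes above the median level, which leave 4 of the 9 to test, gave 2 for MEF2C against SKO+Flag on D6 (1), 1 on D10, 4 for SKO+HDAC7 against GFP (7), 2 for D10 against D6 in SKO+HDAC7 (4) and 1 in SKO+MEF2C (2). In SKO+MEF2C, median centring gave 1 for D10 against D6, and the experiment number as a replicate block over both days also gave 1; the cause was not tested.

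With 1 array left out at a time, the counts ranged between 1 and 4 for MEF2C against SKO+Flag over both days, 0 and 1 on D6 and 1 and 3 on D10. They ranged between 2 and 4 for SKO+Flag against GFP, 1 and 2 for the same on D6, 3 and 6 for SKO+HDAC7 against GFP, and 0 and 2 for the change of the MEF2C effect, and the count was 1 throughout for D10 against D6 in SKO+MEF2C. Over all genes, the fits with fewer arrays called 501 genes for HDAC7 against SKO+Flag on D10 (1450), 502 for MEF2C against SKO+Flag on D10 (1397), 3012 for SKO+Flag against GFP on D10 (5359), 504 for D10 against D6 in SKO+Flag (1610) and 1 for the change of the MEF2C effect (17). Left-out arrays took the D6 counts down to 293 with HDAC7 (914) and 157 with MEF2C (618), and gave 0 to 483 for the change of the HDAC7 effect (25) and up to 213 for that of MEF2C. Deviations of same-numbered arrays correlated between -0.24 and 0.18 over 15 pairs of groups, 4 of them above 0.1, so the numbers were not taken to pair arrays. A block with crossed numbers, chosen after seeing the data, gave 3 genes for D10 against D6 in SKO+Flag, as without it. Another choice of probe set cannot change the 9 genes, which have 1 each. No detection calls were used, so dim probe sets limit what can be read from Cldn4, Cldn6, Ocln, Marveld2 and Tjp3, which lay below the median gene.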
